A study of Homo sapiens with 4 samples.

Results

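The protein-coding genes of human chromosome 13 were followed in RNA-seq libraries that every label gives as MDA-MB-453, a line of human breast cancer, while the series text calls the profiles retinal. There were 2 libraries of cells with reduced TMEM9 (TMEM9 KD) and 2 of wild-type cells (WT). The protein TMEM9 sits in the membrane of late endosomes and lysosomes. The labels do not say how TMEM9 was reduced, for how long, or whether either group was a single clone, and they name no other agent for either group. The members were chosen by position, gene type and summed count. They are the protein-coding genes of chromosome 13 with 80 or more counts over the 4 libraries, less symbols that start with COL, GJ, PCDH, TNFSF, TRIM, ARHGEF, KCN, MRP, RPL or KLF and less RB1, IRS2, EFNB2, LAMP1, DNAJC3, LATS2 and LCP1. This gave 182 members among 48162 genes of the table. Of 311 protein-coding genes of the chromosome in the table, 201 reached 80 counts and 19 of these were left out by symbol, while 104 fell short of the minimum and were not among those symbols. The minimum was set on the summed count, and the chromosome was picked with its shift between the groups already known, so the shift is given as a description with no test.

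Chromosome 13 is acrocentric, with ribosomal RNA genes on its short arm and its protein-coding genes on the long arm. These genes share a position and no common function. They include genes of DNA repair, of the spindle and centrosome, of the ubiquitin system, of mitochondria and of cell surface signalling, with the tumour suppressor RB1 (not a member here) in the middle part of the arm. Genes on one chromosome are transcribed from separate promoters for the most part, and their transcript levels can move separately or together.

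Just inside the count minimum stood MTUS2 and N4BP2L1 with 82 counts each and TUBA3C with 91. Just outside it stood GGACT with 75 counts, TEX29 with 69 and RXFP2 with 66. MTUS2, N4BP2L1, GGACT and RXFP2 had lower counts in both TMEM9 KD libraries than in either WT library. TEX29 had 36 and 30 counts in TMEM9 KD against 0 and 3 in WT, the opposite direction. All 182 members passed the filter on low counts.

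Total counts in genes were 15960941 and 17065126 in the TMEM9 KD libraries, against 15323843 and 18517337 in the WT libraries. Levels are given as CPM, the counts scaled to a common library total with TMM factors, and log2 fold changes are of TMEM9 KD over WT from edgeR's quasi-likelihood fit across all genes tested. A member was called where its p, adjusted over all 14923 genes tested, was under 0.05. The labels do not tie the libraries to separate cultures, and a p-value here rests on library-to-library spread that may be technical. In bulk RNA, fewer cells of a kind and less RNA per cell cannot be told apart. TMEM9 itself, on chromosome 1, had 51 and 78 counts in TMEM9 KD against 1120 and 1497 in WT, or 3.79 ± 0.957 CPM in TMEM9 KD and 79.1 ± 5.92 CPM in WT (SD, n = 2 each), a log2 fold change of -4.37 (SE 0.126, edgeR adjusted p = 4.12e-52). Mitochondrially encoded transcripts took 3.18% and 2.83% of the counts in TMEM9 KD against 3.98% and 3.98% in WT. Of 10 luminal marker genes, SPDEF, TFF3, KRT19 and CDH1 averaged under 0.3 CPM in both groups. The low SPDEF, TFF3 and KRT19 go against the luminal line of the labels, while KRT8 averaged 269 CPM in TMEM9 KD and 282 CPM in WT. The basal or mesenchymal markers summed to 3111 and 3018 CPM in TMEM9 KD against 2425 and 2485 CPM in WT, but 5 of the 8 were called lower and 3 higher. AXL averaged 731 CPM in TMEM9 KD and 228 CPM in WT, and VIM and ZEB1 were also higher. KRT14 averaged 0 CPM in TMEM9 KD and 14.7 CPM in WT and TP63 32.5 CPM in TMEM9 KD and 155 CPM in WT, and KRT5, KRT6A and CAV1 were also lower. The 6 leukocyte markers summed to 5.56 and 5.84 CPM in TMEM9 KD against 8.49 and 11.1 CPM in WT. Of these, CD14 was called lower, at 0.733 and 1.66 CPM in TMEM9 KD against 6.22 and 8.34 CPM in WT. PTPRC was called higher, at 4.40 and 4.01 CPM in TMEM9 KD against 2.27 and 2.78 CPM in WT, and the others averaged under 0.3 CPM in both groups. Erythroid markers summed to at most 0.0611 CPM in any library. Endothelial markers summed to 0.55 and 1.03 CPM in TMEM9 KD against 0.0669 and 0.0556 CPM in WT, and fibroblast markers to 1347 and 1522 CPM in TMEM9 KD against 871 and 886 CPM in WT, nearly all of it COL1A1. The part of these markers in the chromosome's values was not tested.

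The members were lower as a body in the TMEM9 KD libraries. Together they took 0.754% and 0.717% of all counts in TMEM9 KD, against 1.12% and 1.11% in WT. Their summed level was 7352 and 7013 CPM in TMEM9 KD, against 11495 and 11468 CPM in WT. The median member stood at 22.2 and 20.6 CPM in TMEM9 KD, against 33.9 and 33.2 CPM in WT. Both TMEM9 KD libraries were thus below both WT libraries on each of these measures. The median log2 fold change of the members was -0.62, a ratio of 0.649, with quartiles of -0.89 and -0.39, and 167 of 182 members lay below 0. The median over 11648 protein-coding genes of the other chromosomes with the same count minimum was 0.0023, with an interquartile range of 0.658 against 0.494 for the members.

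Pairing each TMEM9 KD library with each WT library gave similar member medians in all 4 pairs. The median member ratio on the log2 scale, with 0.5 CPM added to each value, was -0.56 and -0.55 for TMEM9 KD 1 over WT 1 and WT 2. For TMEM9 KD 2 over WT 1 and WT 2 it was -0.65 and -0.66. Within groups the same median was 0.08 for TMEM9 KD 1 over TMEM9 KD 2 and 0.01 for WT 1 over WT 2. The members of TMEM9 KD 2 were thus a little lower than those of TMEM9 KD 1, by much less than either differed from WT. For protein-coding genes of the other chromosomes these 6 medians lay between -0.0068 and 0.006.

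**Figure D1:**
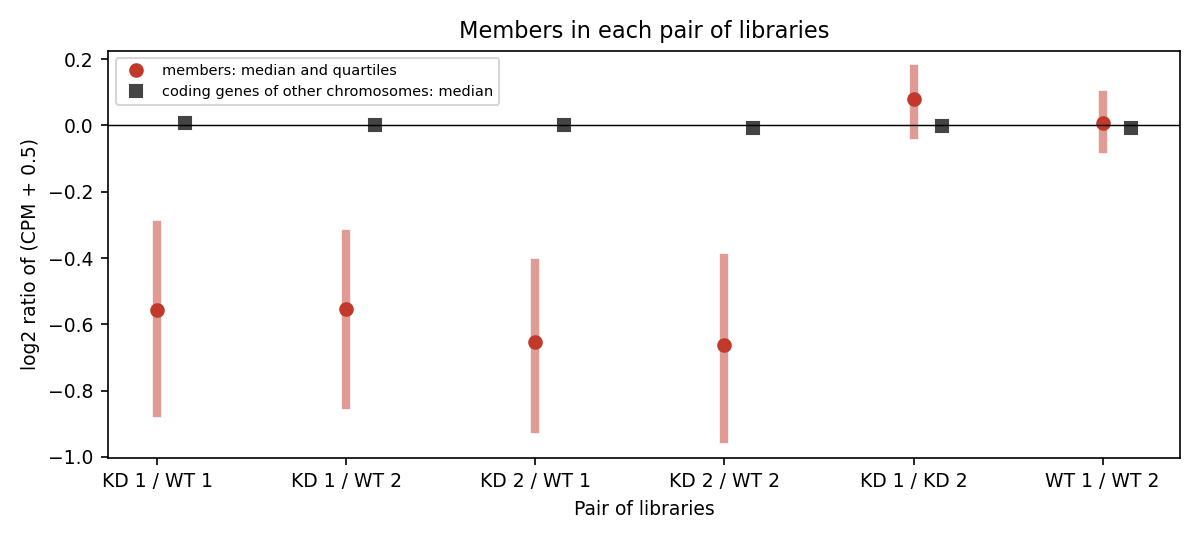
Log2 ratio of CPM + 0.5 between each pair of libraries. Circles with bars are the median and quartiles of the 182 chromosome 13 members, and squares the median of 11648 protein-coding genes of the other chromosomes. The 4 pairs of a TMEM9 KD over a WT library sit between -0.66 and -0.55, and both pairs within a group sit at 0.08 or nearer to 0.

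By gene, 151 members (83%) were called lower in TMEM9 KD, 6 were called higher and 25 were not called. Over all genes tested, 29% were called lower and 28.7% higher, and over protein-coding genes of the other chromosomes with 80 or more counts 30.8% and 30.4%. In 163 members both TMEM9 KD libraries lay below both WT libraries, and in 12 both lay above, against 38.5% and 39.1% of all genes tested. The exact permutation test over samples cannot go below 0.333 with 2 libraries against 2, so such a count carries no p for a single gene. Changes were moderate for most members: 134 lay between -1 and 0 on the log2 scale, 33 at or under -1 and 13 at or under -2. The 19 genes of the chromosome left out by symbol had a median log2 fold change of -0.73, with 15 called lower and 2 called higher. Among the members, 13 reached 80 counts in the WT libraries but not in the TMEM9 KD libraries, SHISA2, EPSTI1, CYSLTR2, GPC6, ATP7B, HS6ST3 and GPR183 among them, and FARP1 did so in TMEM9 KD alone. Entry through 1 group alone favours genes that differ, and nothing is read from their number. CAB39L, also among the 13, had 44 and 34 counts in TMEM9 KD against 46 and 69 in WT and was not called. The other 168 members, a subset taken after the data were seen, had a median log2 fold change of -0.60, with 139 called lower and 5 higher.

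No other chromosome stood as far from 0. Over 22 other chromosomes, the median log2 fold change of protein-coding genes with 80 or more counts ran from -0.19 on chromosome 8 to 0.23 on chromosome 4. On chromosome 13, with the symbols left out put back (201 genes), it was -0.64. The share of genes called lower was 82.6% on chromosome 13, and between 18.1% and 44.4% on the others. The interquartile range was 0.496 on chromosome 13, and between 0.551 and 0.767 on the others.

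**Figure D2:**
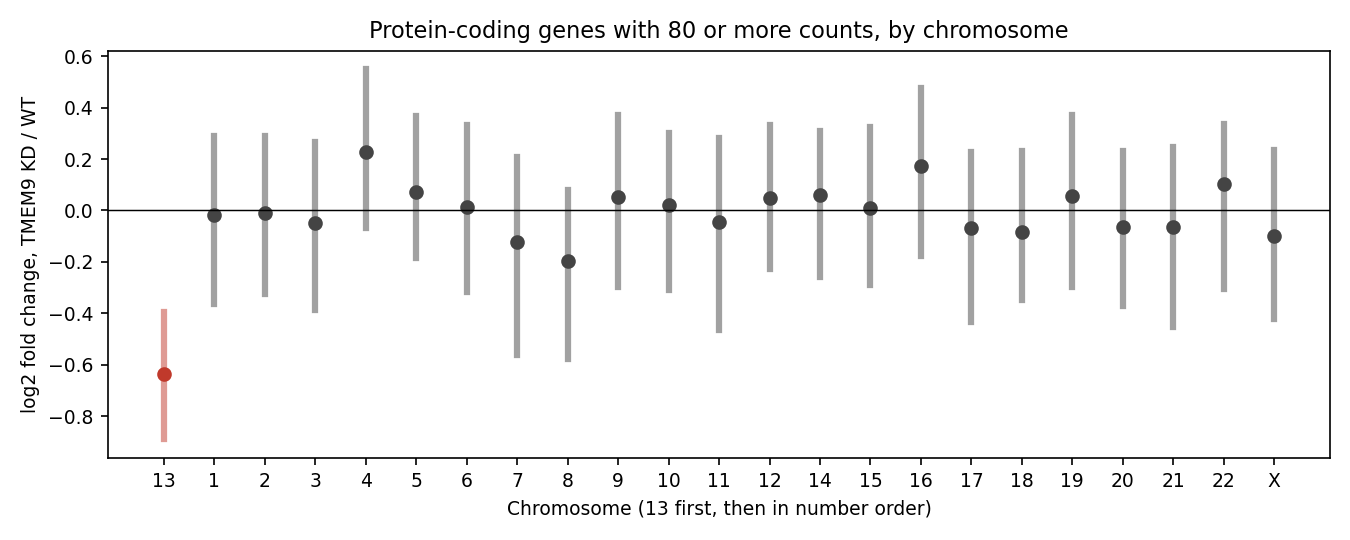
Median (points) and quartiles (bars) of the log2 fold change, TMEM9 KD over WT, of protein-coding genes with 80 or more counts, with chromosome 13 at the left and the others in number order. Chromosome 13 has a median of -0.64, and the other 22 chromosomes lie between -0.19 and 0.23.

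The lower level extended over the whole gene order of the chromosome, taken from GENCODE 29. In 5 blocks of 36 or 37 members, the median log2 fold change was -0.58 from TUBA3C to KATNAL1, -0.58 from HMGB1 to AKAP11, -0.60 from EPSTI1 to ATP7B, -0.68 from ALG11 to IPO5 and -0.64 from FARP1 to CHAMP1. The numbers called lower in these blocks were 27, 29, 30, 33 and 32. A running median of 11 members stayed below 0 in all 172 windows. It was lowest at -0.92 in a window from RBM26 to HS6ST3 and highest at -0.37 in a window from CYSLTR2 to RNASEH2B. Across members, the rank correlation between gene order and log2 fold change was -0.079 (Spearman, 182 genes of the same 4 libraries), and that between neighbouring members was 0.041 (181 pairs). At one end of the order TUBA3C, an alpha-tubulin that shares sequence with other tubulin genes, had 27 and 29 counts in TMEM9 KD against 14 and 21 in WT and was not called against 0. At the other end CHAMP1, a zinc finger protein of chromosome alignment, had 34.9 and 36.8 CPM in TMEM9 KD against 48.2 and 48.5 CPM in WT and was called lower (log2 fold change -0.43).

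**Figure D3:**
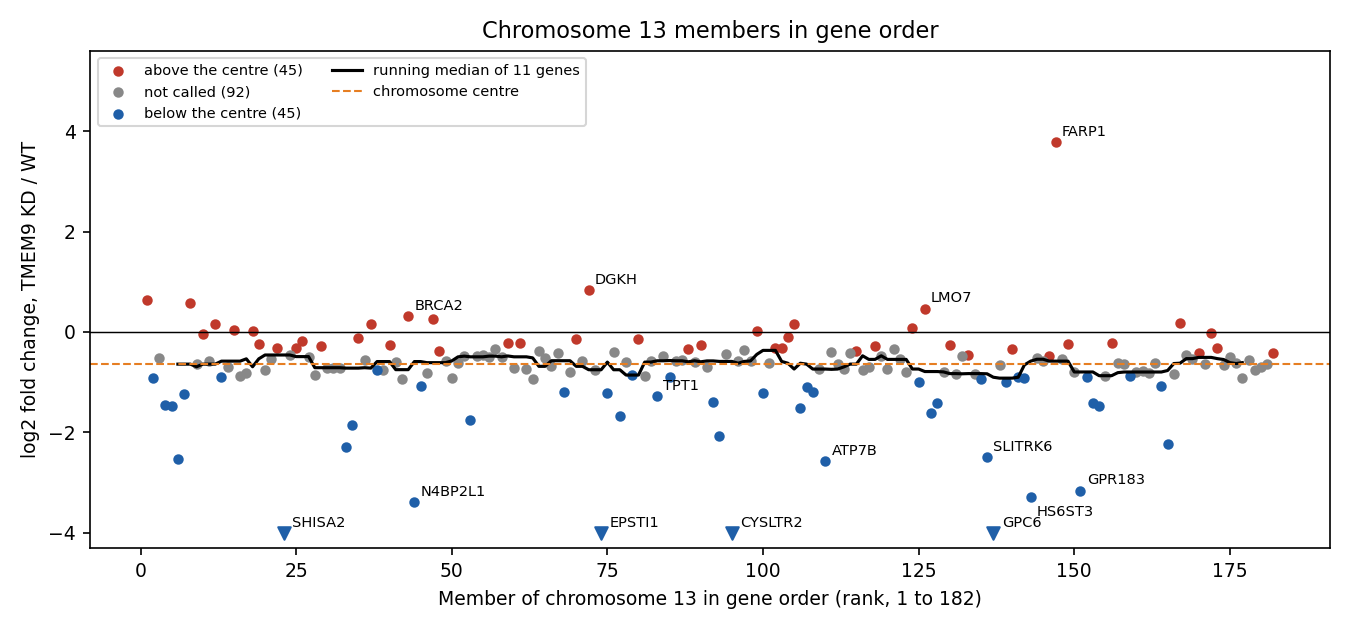
Log2 fold change, TMEM9 KD over WT, of each of 182 members by rank in gene order. Colours mark members called above (45) or below (45) the chromosome centre (dashed, -0.64), triangles at -4 are members below that value, and the black line is the running median of 11 members, which stays between -0.92 and -0.37.

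Which members departed from the shared shift was asked of each gene in the same fit, with the median of its own chromosome (-0.64 for chromosome 13, a ratio of 0.643) entered as an offset in the TMEM9 KD libraries. The centre was taken as known, so its own error is not in these p-values. By this test 45 members lay above the centre and 45 below it, together 49.5% of members. The centre is the median of the chromosome's own genes, so similar numbers on both sides follow largely from the centring. Over all genes tested, each against its own chromosome, 56.9% departed, 28.5% above and 28.4% below. On the other chromosomes the share of protein-coding genes with 80 or more counts that departed was between 56.6% and 67.5%, and on chromosome 13 it was 51.2%. Of the 151 members called lower, 86 did not depart, 45 were below the centre and 20 above it. Of the 25 not called against 0, 19 lay above the centre.

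Genes of DNA repair, replication and chromatin counted 17 members, of which 14 were lower, 1 higher and 2 not called, with a median log2 fold change of -0.50, and 6 lay above and 4 below the centre. BRCA2, a protein of homologous recombination, had 38.7 and 34.4 CPM in TMEM9 KD libraries, against 29.4 and 29.5 CPM in WT libraries. It was among the 6 members that were higher (log2 fold change 0.31, SE 0.0993, edgeR adjusted p = 0.00531) and lay 0.95 above the centre on the log2 scale. That call against 0 was lost without WT 1 (0.30), without WT 2 (0.31) and without TMEM9 KD 1 (0.23), while its departure from the centre was kept. RNASEH2B, a subunit of the ribonuclease that removes ribonucleotides from DNA, had 22.1 and 19.4 CPM in TMEM9 KD, against 17.7 and 19.3 CPM in WT. Its groups all but touched, and it was not called against 0 but lay 0.80 above the centre. LIG4, the ligase of non-homologous end joining, sat near the centre with 17.8 and 17.4 CPM in TMEM9 KD, against 29 and 25.2 CPM in WT (log2 fold change -0.62). PDS5B, a cohesin-associated protein, had 51.1 and 46.9 CPM in TMEM9 KD, against 87.7 and 84.2 CPM in WT, and fell by 0.81 on the log2 scale. The zinc finger genes ZMYM2 and ZMYM5, next to each other in gene order, were both below the centre. ZMYM2 had 24 and 23.3 CPM in TMEM9 KD, against 66.8 and 64 CPM in WT (log2 fold change -1.47, SE 0.0921). ZMYM5 had 3.36 and 4.12 CPM in TMEM9 KD, against 11.1 and 9.51 CPM in WT (log2 fold change -1.45, SE 0.196). In both genes the groups stood well apart, but the rule that named them asked for groups that do not overlap. PHF11, a PHD finger protein, had 8.43 and 6.99 CPM in TMEM9 KD, against 19.5 and 16.4 CPM in WT (log2 fold change -1.22).

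Genes of mitosis, centrosome and cytoskeleton had 15 members, of which 12 were lower, 1 higher and 2 not called, with a median log2 fold change of -0.42, the nearest to 0 of the 9 lists. Of these, 7 lay above the centre and 1 below. LMO7, an actin-binding protein of adherens junctions, had 51.9 and 53.3 CPM in TMEM9 KD libraries, against 38.1 and 38.3 CPM in WT libraries, and was higher (log2 fold change 0.46, SE 0.0881, edgeR adjusted p = 3.89e-06). It lay 1.10 above the centre, and its calls held under each scaling, filter and left-out library tried. KATNAL1, a katanin that severs microtubules, had 51.7 and 47.9 CPM in TMEM9 KD, against 45.9 and 43.1 CPM in WT. SKA3, a kinetochore protein that holds spindle microtubules, had 36.2 and 36.9 CPM in TMEM9 KD, against 33.9 and 31.5 CPM in WT. In both genes the TMEM9 KD libraries were above the WT libraries, neither was called against 0, and both lay 0.80 above the centre. The rule that named them asked for groups that do not overlap. CENPJ, which sets centriole length, had 19 and 17.2 CPM in TMEM9 KD, against 30.9 and 30 CPM in WT (log2 fold change -0.75). MZT1, a part of the gamma-tubulin ring complex, had 50.2 and 41 CPM in TMEM9 KD, against 72.4 and 79.4 CPM in WT (log2 fold change -0.74). CDC16, a subunit of the anaphase-promoting complex, had 42.4 and 36 CPM in TMEM9 KD, against 60.3 and 66.4 CPM in WT (log2 fold change -0.69). None of these last 3 was called away from the chromosome's centre. Against a centre of its 10 nearest members, CENPJ was called below (-0.36). FRY, a microtubule-binding protein, had 5.31 and 5.27 CPM in TMEM9 KD, against 7.83 and 12.2 CPM in WT (log2 fold change -0.93), but its WT libraries differed from each other and the call was lost without WT 2 (-0.57).

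Transcription factors and regulators had 11 members, of which 10 were lower and 1 was not called, with a median log2 fold change of -0.61 and 2 above and 3 below the centre. ZIC2, a zinc finger factor of early neural development, had 2.63 and 4.18 CPM in TMEM9 KD libraries, against 8.09 and 10.1 CPM in WT libraries (log2 fold change -1.41, SE 0.211). It lay below the centre (departure -0.78), a call that was lost without WT 2 (-0.60) and without TMEM9 KD 1 (-0.43). INTS6, an Integrator subunit, had 28.8 and 24 CPM in TMEM9 KD, against 58.6 and 54.2 CPM in WT (log2 fold change -1.10). TSC22D1, a leucine zipper regulator, had 149.6 and 137 CPM in TMEM9 KD, against 260.4 and 259 CPM in WT (log2 fold change -0.86). POLR1D, a subunit shared by RNA polymerases I and III, had 53.4 and 55.9 CPM in TMEM9 KD, against 90.9 and 89.9 CPM in WT (log2 fold change -0.73). In each of these 3 genes both TMEM9 KD libraries were under both WT libraries, as in 163 of 182 members.

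Genes of RNA processing, decay and translation had 15 members, of which 13 were lower, 1 higher and 1 not called, with a median log2 fold change of -0.64, equal to the centre, and 3 above and 2 below it. TPT1, the translationally controlled tumour protein, was the most abundant member per length, at 102 CPM per kb in TMEM9 KD and 248 CPM per kb in WT. It had 766 and 713 CPM in TMEM9 KD libraries, against 1799 and 1805 CPM in WT libraries, and fell further than the centre (log2 fold change -1.29, SE 0.0506, departure -0.65). TPT1 has retrocopies elsewhere in the genome, among which reads may have been split. CARS2, the mitochondrial cysteinyl-tRNA synthetase, had 59.9 and 65.9 CPM in TMEM9 KD, against 57.2 and 53.7 CPM in WT. It was higher by the smallest margin of the 6 (log2 fold change 0.18, edgeR adjusted p = 0.0467), a call lost without WT 1 (0.22), without WT 2 (0.13) and without TMEM9 KD 2 (0.11), with DESeq2 size factors, DESeq2 itself or no filter on low counts (0.18 each), and with TMM factors from the other chromosomes (0.17). Its place above the centre, by 0.82, was kept in each of these. N4BP2L2 had 27.1 and 23.7 CPM in TMEM9 KD, against 51.3 and 55.9 CPM in WT (log2 fold change -1.08). The mitochondrial initiation factor gene MTIF3 had 9.83 and 10.8 CPM in TMEM9 KD, against 20.7 and 16.6 CPM in WT (log2 fold change -0.85). MTRF1, a mitochondrial release factor, had 6.96 and 4.35 CPM in TMEM9 KD, against 9.43 and 10.1 CPM in WT (log2 fold change -0.79). UPF3A, of nonsense-mediated decay, was the member nearest to the centre, with 27.4 and 27 CPM in TMEM9 KD, against 42.4 and 42.2 CPM in WT (log2 fold change -0.64, ratio 0.643). UTP14C, a retrocopy that shares exons with ALG11 in the annotation, had 20.9 and 19.8 CPM in TMEM9 KD, against 31.8 and 31.7 CPM in WT (log2 fold change -0.64), and its reads may not be told apart from those of ALG11.

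Genes of mitochondria and metabolism had 16 members, of which 13 were lower and 3 not called, with a median log2 fold change of -0.65 and 3 above and 4 below the centre. SLC7A1, a carrier of cationic amino acids in the plasma membrane, had 143 and 164 CPM in TMEM9 KD libraries, against 168 and 166 CPM in WT libraries. It was not called against 0 and lay 0.51 above the centre. PCCA, the alpha subunit of propionyl-CoA carboxylase, had 8.55 and 8.14 CPM in TMEM9 KD, against 23.5 and 23 CPM in WT, and fell further than the centre (log2 fold change -1.48, SE 0.138). DNAJC15, a co-chaperone of the mitochondrial inner membrane, had 26.1 and 24.5 CPM in TMEM9 KD, against 59.8 and 57.2 CPM in WT (log2 fold change -1.21). ABHD13 had 14.3 and 13.1 CPM in TMEM9 KD, against 29.6 and 28.2 CPM in WT (log2 fold change -1.08), and both it and DNAJC15 lay below the centre. NAXD, which repairs hydrated nicotinamide cofactors, had 11.2 and 13.1 CPM in TMEM9 KD, against 21 and 22.4 CPM in WT (log2 fold change -0.84).

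Genes of ubiquitin, chaperones and protein turnover had 18 members, of which 17 were lower and 1 was not called, with a median log2 fold change of -0.64 and 3 above and 3 below the centre. KCTD12, known as an auxiliary subunit of GABA-B receptors, had 32.3 and 29 CPM in TMEM9 KD libraries, against 96.7 and 91.9 CPM in WT libraries, and lay below the centre (log2 fold change -1.62, SE 0.0839, departure -0.98). KBTBD7, an adaptor of cullin 3 ligases, had 5.68 and 6.88 CPM in TMEM9 KD, against 14.8 and 13.9 CPM in WT (log2 fold change -1.19). UGGT2, a paralogue of the glucosyltransferase that senses misfolded glycoproteins, had 32.4 and 28.6 CPM in TMEM9 KD, against 57.2 and 58.3 CPM in WT (log2 fold change -0.92). UBAC2, of protein degradation at the endoplasmic reticulum, had 33.5 and 36.8 CPM in TMEM9 KD, against 58.5 and 63.7 CPM in WT (log2 fold change -0.80). The groups did not overlap in any of these genes, as in 163 of 182 members with TMEM9 KD below WT. For KCTD12 the rule that named it asked for this. TPP2, a large cytosolic peptidase, sat near the centre with 53.4 and 49.9 CPM in TMEM9 KD, against 80.4 and 77.8 CPM in WT (log2 fold change -0.61).

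Genes of membrane traffic, glycosylation and nuclear transport had 22 members, of which 19 were lower and 3 not called, with a median log2 fold change of -0.56 and 6 above and 6 below the centre. XPO4, a nuclear export receptor, had 53 and 50.9 CPM in TMEM9 KD libraries, against 53 and 54.2 CPM in WT libraries, a log2 fold change of -0.05. It was not called against 0 and lay 0.59 above the centre. ITM2B, a type II membrane protein linked to familial dementias, had 106 and 94.5 CPM in TMEM9 KD, against 264 and 268 CPM in WT (log2 fold change -1.40, SE 0.0646). ITM2B fell further than the centre. COG3, of the tether complex at the Golgi, had 17.5 and 16.7 CPM in TMEM9 KD, against 32.7 and 30.7 CPM in WT (log2 fold change -0.89). TM9SF2, a membrane protein of Golgi and endosomes, had 130.0 and 116 CPM in TMEM9 KD, against 229 and 226 CPM in WT (log2 fold change -0.89). SPART, the protein spartin of endosomes and lipid droplets, and ATP11A, a phospholipid flippase, sat near the centre. SPART had 77.3 and 71.3 CPM in TMEM9 KD, against 113 and 114 CPM in WT (log2 fold change -0.61). ATP11A had 25.2 and 28.5 CPM in TMEM9 KD, against 42.9 and 40.3 CPM in WT (log2 fold change -0.63).

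Genes of receptors, signalling and adhesion had 23 members, of which 18 were lower, 3 higher and 2 not called, with a median log2 fold change of -0.75 and 5 above and 9 below the centre. DGKH, a diacylglycerol kinase, had 7.39 and 7.68 CPM in TMEM9 KD libraries, against 4.82 and 3.73 CPM in WT libraries, and was higher (log2 fold change 0.83, SE 0.208, edgeR adjusted p = 0.000369). It lay 1.47 above the centre, the most of the members named by the rule. STARD13, a GTPase-activating protein, had 33.2 and 31.5 CPM in TMEM9 KD, against 27.9 and 26.6 CPM in WT. It was higher (log2 fold change 0.25, edgeR adjusted p = 0.032), a call lost without WT 1 (0.28), without WT 2 (0.21), without TMEM9 KD 1 (0.22), and by DESeq2 or with no filter on low counts (0.24), and lay 0.89 above the centre. SHISA2, of a family whose Xenopus member Shisa holds Wnt and FGF receptors back in the endoplasmic reticulum, had 2 and 2 counts in TMEM9 KD against 376 and 544 in WT. Its level in WT was 236 times that in TMEM9 KD (exact Clopper-Pearson 95% interval 92.0 to 869, counting error alone). SLITRK6, a transmembrane protein of neurons and the inner ear, had 12.5 and 8.59 CPM in TMEM9 KD, against 59.1 and 59.5 CPM in WT (log2 fold change -2.49, SE 0.113). LPAR6, a receptor for lysophosphatidic acid, had 2.87 and 2.58 CPM in TMEM9 KD, against 11 and 11.8 CPM in WT (log2 fold change -2.07, SE 0.203). All 3 lay below the centre, with groups far apart. The rule that named the members furthest from the centre asked for groups that do not overlap, so nothing is read from this. LPAR6 lies within an intron of RB1, and without strand its reads cannot be told apart from unspliced reads of RB1. GPR180 had 24.4 and 21.6 CPM in TMEM9 KD, against 48.1 and 43.2 CPM in WT (log2 fold change -0.99). FARP1, a FERM-domain exchange factor singled out after its values were seen, had 36 and 52 counts in TMEM9 KD against 1 and 5 in WT, at a mean under 5 CPM. Its level in TMEM9 KD was 14.3 times that in WT (exact Clopper-Pearson 95% interval 6.30 to 40.0, counting error alone). Exons of FARP1 overlap those of STK24, FARP1-AS1 and AL161896.1 on the other strand. Without strand, reads cannot be told apart where these overlap. The neighbours of FARP1 in gene order, IPO5 and STK24, were both called lower.

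**Figure D4:**
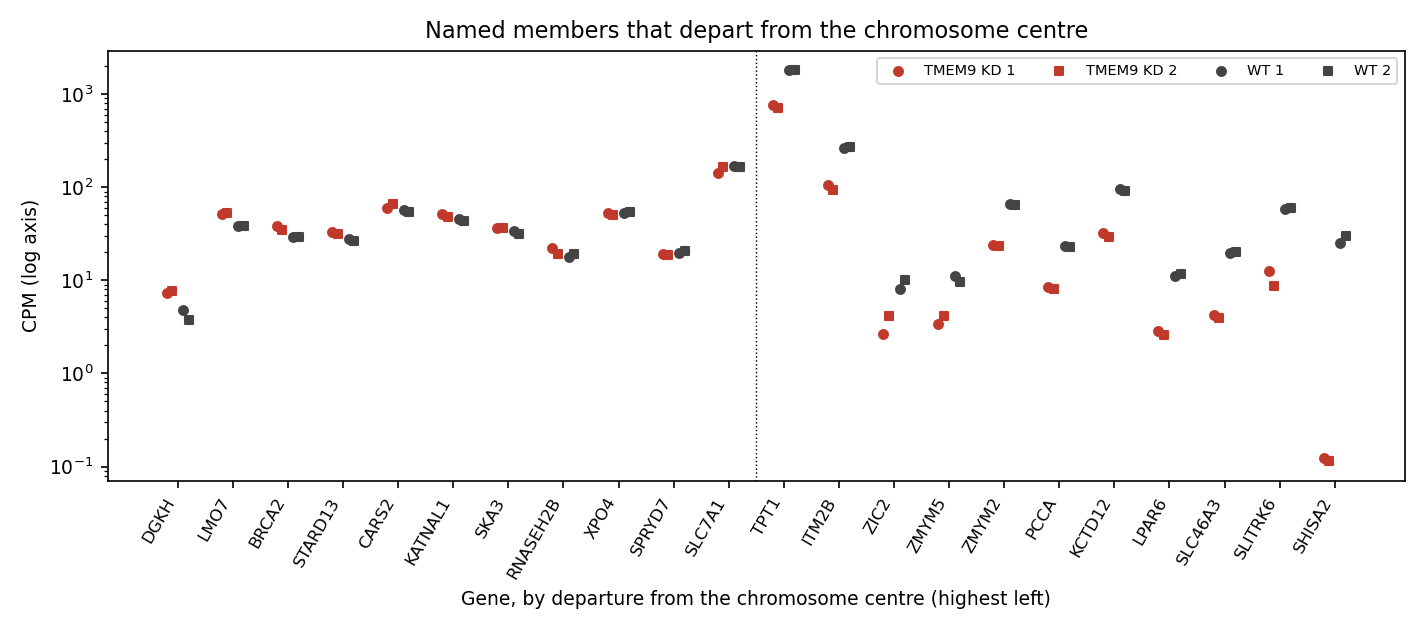
CPM on a log axis of 11 named members above the chromosome centre (left of the dotted line) and 11 below it (right), in each TMEM9 KD library (red) and each WT library (grey). Left of the line the groups lie close together, from DGKH, higher in TMEM9 KD, to SLC7A1, and right of it TMEM9 KD lies lower, down to SHISA2 at 0.122 and 0.115 CPM against 25.1 and 30.3 CPM in WT.

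Members with no count in a group were both at 0 in TMEM9 KD. EPSTI1, a gene known to be induced by interferon, had 0 and 0 counts in TMEM9 KD against 94 and 111 in WT. CYSLTR2, a receptor for cysteinyl leukotrienes, had 0 and 0 counts in TMEM9 KD against 78 and 83 in WT. With 3 counts over the group as the floor, EPSTI1 was at least 70.2-fold lower in TMEM9 KD and CYSLTR2 at least 55.1-fold lower. GPC6, a glypican singled out after its values were seen, had 1 and 2 counts in TMEM9 KD against 81 and 122 in WT. Its level in WT was 69.5 times that in TMEM9 KD (exact Clopper-Pearson 95% interval 23.5 to 340). The floors and the interval take in counting error alone. As with SHISA2, each of these 3 genes reached the minimum of 80 counts through the WT libraries alone.

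The promoters of 3 members are shown because they stand for the 3 kinds of behaviour: EPSTI1 with no count in TMEM9 KD, BRCA2 above the centre and UPF3A at the centre. They are the 250 bases before the annotated gene start in RefSeq (GRCh38.p14), 5′ to 3′ on the strand of the gene. EPSTI1 is at chr13:42992242-42992491 on the minus strand, BRCA2 at chr13:32315258-32315507 on the plus strand and UPF3A at chr13:114281351-114281600 on the plus strand. Capitals mark a match to a core of the interferon-stimulated response element, written as GAAA, 2 of any base and GAAA.
EPSTI1: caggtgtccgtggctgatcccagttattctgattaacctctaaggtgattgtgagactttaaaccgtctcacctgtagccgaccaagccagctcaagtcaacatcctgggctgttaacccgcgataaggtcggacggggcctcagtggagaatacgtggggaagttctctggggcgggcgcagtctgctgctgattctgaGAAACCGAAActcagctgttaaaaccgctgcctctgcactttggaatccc
BRCA2: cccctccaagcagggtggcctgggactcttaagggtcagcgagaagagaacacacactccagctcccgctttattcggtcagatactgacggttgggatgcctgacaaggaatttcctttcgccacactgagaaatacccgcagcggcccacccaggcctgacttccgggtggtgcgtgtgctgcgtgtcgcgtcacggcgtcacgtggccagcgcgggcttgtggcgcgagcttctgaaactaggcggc
UPF3A: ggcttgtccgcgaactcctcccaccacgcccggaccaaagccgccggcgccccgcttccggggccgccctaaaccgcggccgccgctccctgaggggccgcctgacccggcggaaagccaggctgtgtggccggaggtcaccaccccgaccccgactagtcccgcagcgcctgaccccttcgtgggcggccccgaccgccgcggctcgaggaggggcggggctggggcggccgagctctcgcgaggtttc
The match in EPSTI1 lies at -50 to -41 from the gene start. The EPSTI1 promoter holds 12 CpG dinucleotides, that of BRCA2 holds 20 and that of UPF3A holds 34.

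Promoters were found for 161 of 182 members. On either strand, that core stood in 7 of them (4.35%), against 406 of 14978 promoters of protein-coding genes of the table (2.71%). The 7 members were FOXO1, EPSTI1, GTF2F2, COG3, LPAR6, ALG11 and GPC6. By departure, the core stood in 4 of 38 promoters of members below the centre, 0 of 40 above it and 3 of 83 not departing. EPSTI1 and GPC6 reached the count minimum through the WT libraries alone, and nothing is read from this split. TTTGGCGC or TTTCCCGC, a form of the E2F site, stood in 8 members (4.97%), against 385 of 14978 (2.57%). Of these, KATNAL1, RFC3 and CHAMP1 lay above the centre, where 40 promoters were found. HS6ST3, which reached the count minimum in WT alone, lay below it, where 38 were found. The other 4 were among 83 not departing. The median number of CpG dinucleotides was 22 in members above, 22 in those below and 22 in those not departing, against 18 over all promoters. The 14978 promoters were taken without the count minimum that members had to reach. Of 19211 protein-coding genes of the table, 11849 reached that minimum. The sets thus differ in more than chromosome, and nothing is read from motif shares or CpG numbers of members against all promoters. A match is a run of letters and says nothing of binding.

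The list of members near RB1 on the long arm, RB1 itself not being a member, held 18. Of these, 13 were lower and 5 not called, with a median log2 fold change of -0.59 and 5 above and 5 below the centre. The list leaves out members within the same stretch: RNASEH2B, not called and above the centre, and SERPINE3 and WDFY2, both lower and below it. SPRYD7, at the far side of this stretch, had 19.2 and 18.8 CPM in TMEM9 KD libraries, against 19.9 and 20.7 CPM in WT libraries. It was not called against 0 and lay 0.54 above the centre. ITM2B, LPAR6, PHF11, INTS6 and CYSLTR2 of this stretch were described with their roles. In no list were 38 members, of which 30 were lower and 8 not called, with a median log2 fold change of -0.80 and 8 above and 13 below the centre. SLC46A3, a transporter of the lysosomal membrane, was among them with 4.21 and 3.9 CPM in TMEM9 KD, against 19.7 and 20 CPM in WT (log2 fold change -2.29, SE 0.164, departure -1.65).

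**Figure D5:**
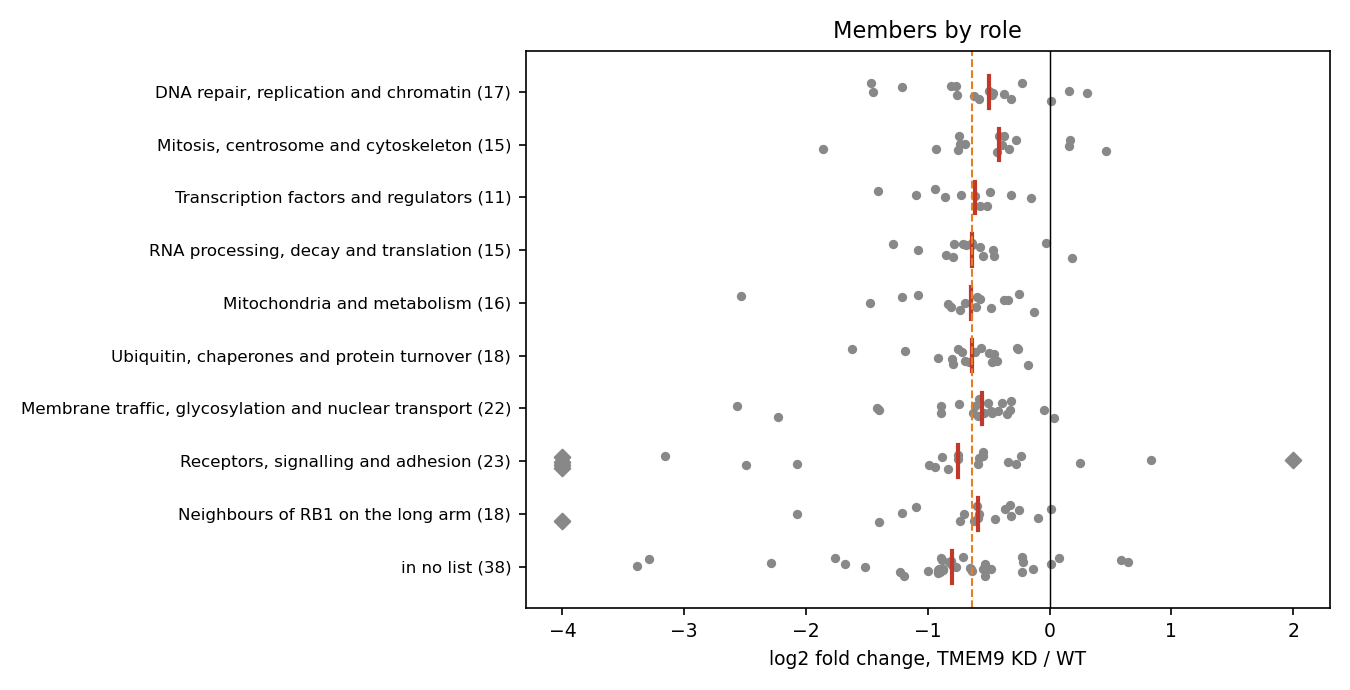
Log2 fold change, TMEM9 KD over WT, of the members by role list, with the number of members in brackets and a gene in more than 1 list shown in each. Red ticks are list medians, the dashed line the chromosome centre (-0.64), and diamonds at -4 and 2 stand for members beyond those values. List medians run from -0.75 to -0.42, and members in no list have a median of -0.80.

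Of 181 pairs of neighbouring members, 15 had one member above the centre and the other below, 18 had both below and 8 had both above. The numbers to be had without any relation between neighbours were not worked out, and nothing is read from these counts. ZMYM5 and ZMYM2 were a pair with both below. Among the pairs on opposite sides, BRCA2 (log2 fold change 0.31) was followed by N4BP2L1 (-3.39), which had 5 and 2 counts in TMEM9 KD against 23 and 52 in WT. LMO7 (0.46) stood between COMMD6 (-0.998) and KCTD12 (-1.62). SETDB2 (0.01), a histone methyltransferase homologue, stood beside PHF11 (-1.22), and NUP58 (-0.32), a nucleoporin, beside SHISA2. SETDB2 had 7.15 and 7.56 CPM in TMEM9 KD, against 7.42 and 7.18 CPM in WT, with overlapping groups. COMMD6 had 15.1 and 17.4 CPM in TMEM9 KD, against 32.2 and 32.8 CPM in WT.

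Members of low level lay further from the rest. The 24 members with a mean under 5 CPM had a median log2 fold change of -1.60, and the 158 others -0.59. At a mean of 20 CPM or more, 109 members had a median of -0.57, with 95 called lower and 4 called higher. Across the 182 members the rank correlation of log2 mean CPM with log2 fold change was 0.251, and with the size of the departure -0.266 (Spearman, genes of the same 4 libraries, which are not independent replicates). Since the minimum was set on the sum over both groups, low members that were high in 1 group alone could enter. Exons of 73 members overlap another gene in the annotation, 23 of them on the same strand, and no source used here gives the strand setting of the counting. Without these 73, chosen after seeing the data, 109 members had a median of -0.63, with 92 called lower and 1, BRCA2, called higher.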

How the data were processed

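RNA was sequenced from 2 TMEM9 KD and 2 WT libraries of MDA-MB-453 cells, grouped by the genotype label. The authors deposited raw counts per Ensembl gene, with a column per library and 0 columns of other samples. Bowtie 0.12.2, CASAVA, hg19 and mm8 appear in the submitters' processing notes without roles. No source used here gives the counting tool, the annotation or the strand setting. Reads shared by near-identical genes may therefore be split or lost.

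Gene type, chromosome, order and exon overlap came from GENCODE 29 through the Ensembl identifier, which matched 45342 genes. The 2820 others took 0.638% of a library's counts or less. That annotation is of another build than the hg19 of the notes, so no gene coordinates are given apart from those of the printed promoters. Promoters are RefSeq's (GRCh38.p14). Members, role lists and tests were chosen with earlier results of these data known.

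The counts as deposited were tested with edgeR 4.0.16 in R 4.3.3: TMM, filterByExpr (minimum count 10, minimum total 15), glmQLFit and glmQLFTest, group as the only term, Benjamini-Hochberg over 14923 genes, threshold 0.05. This left 2 residual degrees of freedom, with a common biological coefficient of variation of 0.0498. The SE is the size of a log2 fold change divided by the root of its F statistic. Departure was tested with the chromosome's median, over protein-coding genes with 80 or more counts, as an offset in the TMEM9 KD libraries. The departure test was also run on simulated counts that gave all genes and both groups the same dispersion, which does not check the calls in these data. Within groups, chi-square over degrees of freedom, on genes with 20 or more counts in the pair, was 4.82 for TMEM9 KD and 2.04 for WT. Both pairs thus spread more than counting error alone, TMEM9 KD the more so, while the fit gives both groups the same dispersion. Each library was kept.

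Named genes are TMEM9, the 12 members furthest above and the 12 furthest below the centre (departure called, mean of at least 5 CPM, groups not overlapping), the 6 of at least 20 CPM nearest to it, up to 4 called members per list with the largest change and at least 5 CPM, both ends of the order, 3 genes on each side of the count minimum, and members with no count in a group. A few of the genes so named are not reported here. Alternatives were other scalings, filters and tests (limma 3.58.1 voom, DESeq2 1.42.0, a test against 1.5-fold), a replicate block, each library left out, other count minimums, the omitted symbols put back and a local centre of the 10 nearest members.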

Additional observations from a re-analysis of the deposited data

How the results depend on the processing

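The members' median log2 fold change lay between -0.68 and -0.57 with a library left out, and was -0.55 with library size only, a setting that moved the median of all genes by 0.0742. With a library left out, 138 to 152 members were called lower, 3 to 6 higher, 34 to 53 above the centre and 33 to 50 below. Both settings without a WT library gave 3 higher. Tested against a change of 1.5-fold, a stricter question, 63 were lower, 1 higher, 8 above the centre and 17 below. Without members whose exons overlap another gene, a choice made after seeing the data that leaves 109 members, 92 were lower, 1 higher, 28 above and 29 below. Among the 168 members that did not reach the minimum through 1 group alone, also chosen after seeing the data, 44 were above and 33 below. Other scalings, filters and tests, other count minimums, the omitted symbols and the local centre kept each count within 1.5 times and moved the median by less than 0.0619, the spread between libraries. No value called in either of the settings compared changed sign. Among values not called, XPO4 went from -0.05 to 0.03 on the log2 scale with library size only, and 18 departure values of 9 named members changed sign, FRY from -0.29 to 0.08 without WT 2. Over all genes, 8618 were called by edgeR, 6950 by DESeq2, 2803 against 1.5-fold, and 6622 to 8578 with a library left out.

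The replicate numbers are shared by the groups, but same-numbered libraries did not deviate together (correlation 0.000474). With a replicate block, 151 members were lower, 5 higher, 43 above the centre and 43 below, with a median of -0.62. Among named members, 757 of the values against 0 kept their call, 32 lost it and 4 gained it, and for the departure these numbers were 782, 56 and 12. A count of 0 limits EPSTI1 and CYSLTR2 to lower bounds.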

Other observations

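Genes of other types on chromosome 13 were not members. With 80 or more counts there were 11, and their median log2 fold change was -0.24, against 0.19 for 1048 such genes on the other chromosomes. Of these 11, 2 were lower, 3 higher and 6 not called, and 6 lay above the centre of the protein-coding genes and 1 below. LINC00460, a long non-coding RNA, had 16.1 and 11.2 CPM in TMEM9 KD, against 5.02 and 6.34 CPM in WT (log2 fold change 1.25, SE 0.174, edgeR adjusted p = 1.15e-09). DLEU1, a non-coding RNA of the stretch beyond RB1, had 12.5 and 9.85 CPM in TMEM9 KD, against 8.16 and 7.96 CPM in WT (log2 fold change 0.47). SWINGN had 40 and 46 counts in TMEM9 KD against 14 and 25 in WT (log2 fold change 1.10). MIR17HG, the host of the miR-17-92 cluster, had 51 and 52 counts in TMEM9 KD against 28 and 65 in WT, with overlapping groups, and was not called. DNAJC3-DT had 20 and 24 counts in TMEM9 KD against 61 and 85 in WT (log2 fold change -1.76), and TPT1-AS1 had 52 and 34 counts in TMEM9 KD against 78 and 81 in WT (log2 fold change -0.92). Without a stated strand setting, reads of TPT1-AS1 and TPT1 cannot be told apart where they overlap. These genes were singled out after their values were seen. Protein-coding genes of the chromosome under the count minimum that could be tested numbered 11, with a median log2 fold change of -0.37.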
